A study of Saccharomyces cerevisiae with 24 samples.

Results

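Splicing during transcription was followed at 3 budding yeast genes that encode actin or actin-related proteins: ACT1 (YFL039C), ARP2 (YDL029W) and ARP9 (YMR033W). They were taken by these identifiers from the 284 genes listed in the series, and all 3 were present in every library. Single Molecule Intron Tracking (SMIT) reads the 3′ end of a growing transcript, and with it the position of RNA polymerase II, and reports whether the intron upstream of it has been removed. Nanopore long reads show the start, the intron and the end of a nascent RNA in 1 molecule. The 24 samples are nascent RNA from chromatin, depleted of poly(A) RNA, of cells growing in rich medium.

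The wild type used for SMIT (MATa his3Δ1 leu2Δ0 met15Δ0 ura3Δ0) was compared with 6 strains that each have 1 gene replaced by KanMX in that background. All were untreated, and each strain had 2 libraries. The deleted genes were NPL3 and GBP2, which encode SR-like RNA-binding proteins; RTT103, a termination factor; THO2, a subunit of the THO complex; PUB1, an RNA-binding protein; and HTZ1, histone H2A.Z. A second SMIT series used 1 library per strain and time at 0, 10 and 30 min of rapamycin at 1 ug/ml, which in anchor-away strains depletes an FRB-tagged protein from the nucleus. Nab2-AA carries NAB2-FRB, tagging the nuclear poly(A)-binding protein Nab2, and Control-AA has no FRB-tagged protein. Both anchor-away strains carry tor1-1, a deletion of FPR1 and RPL13A-2xFKBP12. Nab2-AA is MATalpha and Control-AA is MATa, so mating type and tag cannot be told apart wherever they are compared. For long reads, 2 libraries of each of Nab2-AA and Control-AA were taken at 10 min of rapamycin. The labels do not say that replicate libraries came from separate cultures, so p-values measure a spread among libraries that may be technical.

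Actin forms the filaments of the yeast cytoskeleton, and ACT1 is an essential gene whose intron is a standard substrate in studies of splicing. Arp2 is a subunit of the Arp2/3 complex, which starts branched actin filaments at sites of endocytosis. Arp9 is a nuclear protein, a subunit of the SWI/SNF and RSC chromatin remodelling complexes. Most yeast introns lie near the start of the gene, and many are removed while the polymerase is still transcribing the second exon.

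Each gene has 1 intron close to its start codon. The intron of ACT1 was the longest, with 309 nt (sacCer3, chromosome VI, 54378 to 54686, minus strand), between a coding stretch of 10 nt and one of 1118 nt. ARP2 has an intron of 123 nt (chromosome IV, 399362 to 399484, plus strand) between coding stretches of 22 and 1154 nt. ARP9 has the shortest intron, with 86 nt (chromosome XIII, 337818 to 337903, plus strand), between coding stretches of 30 and 1374 nt. These ends came from gaps in the long reads. The genomic surroundings differ too. The nearest protein-coding gene upstream on the same strand is YPT1 at 669 nt from ACT1 and PRP9 at 210 nt from ARP2. Upstream of ARP9 lie YMR030W-A at 184 nt and HOF1 at 480 nt. Downstream of each gene lies a gene on the opposite strand, 287 nt from ACT1, 358 nt from ARP2 and 140 nt from ARP9.

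The deletion libraries held 699678 to 2839057 SMIT reads downstream of a 3′ splice site, and the anchor-away libraries 1263469 to 1640980. ACT1 contributed 17920 to 80652 of these per library, ARP9 6260 to 25777 and ARP2 3809 to 24828. Intervals on a fraction or share cover counting error only, and may be too narrow because PCR reads are not independent molecules. Intervals on log2 odds ratios rest on the spread between libraries. Replicate 2 of all 7 strains came from 1 sequencing run, while replicate 1 of the wild type and of the deletion strains came from other runs. Over the 48 genes measured, the fraction spliced was higher in replicate 2 for 39 to 44 genes per strain, by a median of 0.0447 to 0.161. Each strain comparison is therefore given over both replicates and within the shared run.

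By raw reads, the ACT1 intron was removed closer behind the polymerase than the introns of ARP2 and ARP9. In raw reads just past the 3′ splice site over 50% of ACT1 reads were spliced in 19 of 20 libraries. For ARP9 this share was passed in 0 of 20 libraries, and for ARP2 in 4 of 20, which were the 3 of Control-AA and npl3Δ replicate 2. With the polymerase 1 to 30 nt past the 3′ splice site, the fraction of ACT1 reads that were spliced ranged from 0.487 to 0.958 over the 20 libraries, with a median of 0.865. The range was 0.141 to 0.737 for ARP2 (median 0.354) and 0.105 to 0.341 for ARP9 (median 0.184). At 301 to 600 nt, ACT1 reached 0.942 to 0.9998, ARP2 0.610 to 0.857 and ARP9 0.428 to 0.786. ACT1 was thus above both other genes at each of these distances in median, and the ranges of ARP2 and ARP9 overlapped across libraries. Within a library ARP2 lay above ARP9 at both distances, except in rtt103Δ replicate 1 (0.141 against 0.180, and 0.663 against 0.669). At 31 to 150 nt the wild type had the other order, with 0.324 and 0.540 for ARP2 against 0.408 and 0.544 for ARP9. Reads that ended upstream of the 3′ splice site made up 13.9% to 35.9% of ARP9 reads, 4.78% to 26.3% of ARP2 reads and 2.57% to 8.52% of ACT1 reads, and of these 1 ARP9 read and no read of the other genes was listed as spliced.

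Averaged over 30 nt bins that held at least 10 reads in every library of a series, the fraction spliced put ACT1 first in 20 of 20 libraries. ARP2 lay above ARP9 in 16 of 20. In the wild type the position-averaged fraction was 0.944 and 0.985 in the 2 ACT1 libraries, 0.573 and 0.672 for ARP2, and 0.588 and 0.609 for ARP9. The order of ACT1 above the others held beyond the spread of the wild-type libraries, whereas ARP2 (0.622 ± 0.0698, SD, n = 2) and ARP9 (0.598 ± 0.0149, SD, n = 2) did not differ beyond it.

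**Figure D1:**
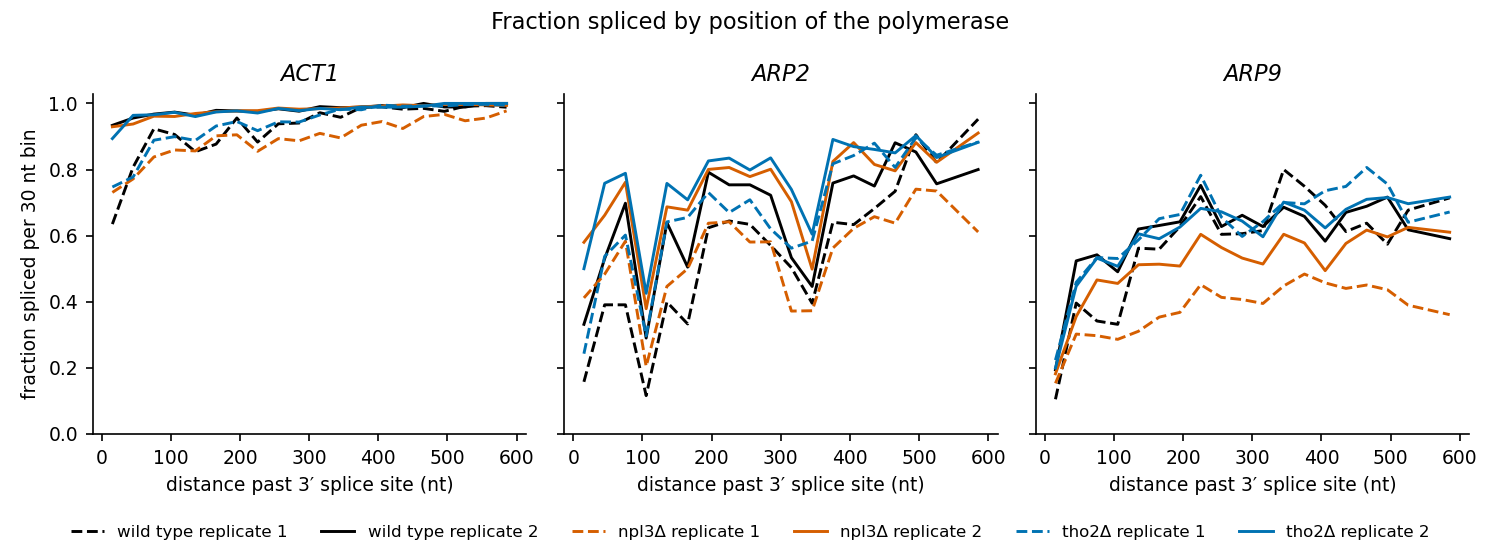
Fraction of SMIT reads spliced (y axis) in 30 nt bins of distance past the 3′ splice site (x axis, nt) for the 3 genes, in the wild type, npl3Δ and tho2Δ; dashed lines are replicate 1 and solid lines replicate 2. ACT1 starts high and nears 1, ARP2 rises with dips at 91 to 120 and 331 to 360 nt, and both npl3Δ curves of ARP9 lie below the wild type in 13 of 20 bins.

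The curves did not rise evenly. For ARP2 the bin at 91 to 120 nt was lower than both its neighbours in 20 of 20 libraries, at 0.116 to 0.463, where the median over libraries was 0.286 against 0.614 in the bin before and 0.534 in the bin after. A second ARP2 dip at 331 to 360 nt was seen in 18 of 20 libraries, at 0.324 to 0.604 (median 0.451). ARP9 had a shallower one at 91 to 120 nt in 19 of 20 libraries, at 0.267 to 0.550, with a median of 0.417 between neighbours at 0.470 and 0.549. No single position filled these bins: the commonest 3′ end held 9.21% to 23.5% of the reads of the first ARP2 bin, 6.96% to 23.8% of the second and 12.3% to 21.9% of the ARP9 bin. The dips recurred across strains and runs at the same distance, and their cause was not tested. ACT1 had slight dips at 121 to 150 nt in 15 of 20 libraries and at 211 to 240 nt in 16 of 20. Some ACT1 bins were filled largely by 1 position: 65 nt held 46.5% to 78.8% of the reads at 61 to 90 nt.

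The deposited files also carry a fraction corrected by the authors. Compared with the raw fraction, the correction divided the odds of being spliced by a factor that was constant along a gene and depended on intron length alone: in each library all of the 41 to 50 single-intron genes compared lay within 2% of 1 exponential in intron length. The slope differed between libraries, from -0.0100 to -0.00255 on the log2 odds scale per nt of intron. Among the 3 genes it weighs most on ACT1, whose odds were divided by 1.73 to 8.65 (median 3.77), against 1.24 to 2.35 for ARP2 (median 1.69) and 1.16 to 1.81 for ARP9 (median 1.44). The wild-type ACT1 values after correction were 0.853 and 0.942, beside 0.486 and 0.584 for ARP2 and 0.515 and 0.528 for ARP9. In wild-type replicate 1 the ACT1 odds were divided by 4.59 and in tho2Δ replicate 1 by 1.73, so part of a corrected difference between strains comes from this slope. The raw reads are used above and below. Just past the 3′ splice site, the libraries with over 50% spliced were not counted again after correction.

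By the shape of the wild-type curve, the genes most like ACT1 were EFB1 (a translation elongation factor), PMI40 (mannose-6-phosphate isomerase) and RPS9A (a ribosomal protein), with root mean square differences in the fraction of 0.0341 to 0.0392 over 17 to 26 bins. Those most like ARP2 were UBC9 (the SUMO-conjugating enzyme), ARP9 itself and PRE3 (a proteasome subunit), at 0.140 to 0.157 over 19 to 21 bins. Those most like ARP9 were HNT1 (a nucleotide hydrolase), IST1 (a factor in vacuolar sorting) and UBC9, at 0.101 to 0.119 over 18 to 19 bins. The curves of ARP2 and ARP9 differed by 0.142, while ACT1 lay 0.362 from ARP2 and 0.369 from ARP9.

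Over the 14 libraries of the deletion series the genes that varied most like ACT1 were RPL30 (Pearson r = 0.965), RPP1B and IMD4; for ARP2 they were NYV1 (r = 0.942), QCR10 and QCR9; for ARP9 they were SEC27 (r = 0.845), RUB1 and NSP1. These values are descriptions: all genes share the libraries and their difference in run, and the median r with the 47 other genes was 0.808 for ACT1, 0.753 for ARP2 and 0.626 for ARP9. Between the members r was 0.859 for ACT1 with ARP2, 0.654 for ACT1 with ARP9 and 0.506 for ARP2 with ARP9.

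The deletion series asks whether loss of an RNA-binding, termination or chromatin factor changes splicing during transcription. No strain changed any of the 3 genes by the test. edgeR's quasi-likelihood test on spliced and unspliced reads, adjusted by Benjamini-Hochberg over 48 genes, called 0 genes in each of the 6 strains (percent called 0), while 0 to 4 genes per strain had an unadjusted p under 0.05. DESeq2 called 1 gene in rtt103Δ, 1 in tho2Δ and none of the 3 genes. Over all strains together, the adjusted p was 0.999 for each of the 3. Since replicate 2 shares a run, the fit was repeated with the replicate number or the run as a block: in tho2Δ 3 genes were then called with the replicate block and 2 with the run block, none of them ACT1, ARP2 or ARP9. With 2 libraries against 2, the smallest two-sided p that an exact permutation test of a single gene can give is 0.33.

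For ACT1 no strain differed from the wild type beyond the spread between replicates. In replicate 1 the position-averaged fraction was 0.916 in npl3Δ, 0.925 in gbp2Δ, 0.920 in rtt103Δ, 0.953 in tho2Δ, 0.925 in pub1Δ and 0.926 in htz1Δ, beside 0.944 in the wild type. In replicate 2 all 6 strains lay between 0.976 and 0.984, just under the wild type at 0.985. The libraries thus separated by replicate and not by strain, and each strain's pair overlapped the wild-type pair. These are raw fractions, and the order turned with the authors' correction, whose slope differs between libraries. Corrected, the strains held 0.944 to 0.955 in replicate 2, above the wild type at 0.942. In replicate 1 they held 0.8528 to 0.929, beside 0.8525 in the wild type. The log2 odds ratio against the wild type ran from -0.49 in htz1Δ to 0.12 in tho2Δ, with standard errors of 1.27 to 1.31, so that changes of several fold in the odds would not have been detected.

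ARP2 was higher in tho2Δ than in the wild type in both replicates, with no overlap of the pairs, but the difference did not pass the test. The tho2Δ libraries held 0.687 and 0.782 (0.734 ± 0.0674, SD, n = 2), and the wild-type libraries 0.573 and 0.672. The difference of the means was 0.112, beside a median of 0.0217 over all genes, and within the shared run it was 0.110, beside a median of 0.0292. Both tho2Δ libraries were above both wild-type libraries in 10 of the 20 ARP2 bins and below them in none. Of the 48 genes, 29.2% lay above the wild type without overlap in tho2Δ. The test gave a log2 odds ratio of 1.12 (SE 0.637, 95% interval -0.13 to 2.36, edgeR adjusted p = 0.500). The edgeR adjusted p was 0.0758 with the replicate block (1.12) and 0.275 with the run block (0.88). The pairs overlapped when bins of 15 nt or bins with at least 50 reads were used, where 0 strains stood apart for ARP2.

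In the other strains the ARP2 pairs overlapped the wild type. The npl3Δ libraries lay far apart, at 0.555 and 0.750, and the rtt103Δ and gbp2Δ libraries nearly as far, at 0.520 and 0.689 and at 0.522 and 0.676. The pub1Δ libraries held 0.573 and 0.701, and the htz1Δ libraries 0.615 and 0.635. Within the shared run the difference from the wild type was 0.0784 in npl3Δ, 0.0291 in pub1Δ, 0.0175 in rtt103Δ, 0.00468 in gbp2Δ and -0.0362 in htz1Δ. In the first 4 the replicates of the strain lay further apart than this, and in htz1Δ they lay closer.

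ARP9 was lower in npl3Δ in both replicates, but the difference did not pass the test. Averaged over both replicates it was the largest of any strain for the 3 genes on the scale of the fraction, while within the shared run ARP2 differed by more in tho2Δ and npl3Δ. The npl3Δ libraries held 0.391 and 0.534 and the wild-type libraries 0.588 and 0.609. Both were below the wild type. The difference was -0.136 in the mean, beside a median of -0.0279 over all genes, and -0.0749 within the shared run, beside a median of 0.00441. Both npl3Δ libraries lay below both wild-type libraries in 13 of 20 bins and above them in none. Next to the splice site, at 1 to 30 nt, the pairs overlapped (0.153 and 0.182 in npl3Δ against 0.105 and 0.194 in the wild type), and at 301 to 600 nt they did not (0.428 and 0.583 against 0.683 and 0.649). Of the 48 genes, 10.4% lay below the wild type without overlap in npl3Δ. Over all reads the log2 odds ratio was -0.45 (SE 0.471, 95% interval -1.37 to 0.48, edgeR adjusted p = 0.946). When all reads were pooled without bins, the npl3Δ libraries, 35.8% and 46.5% spliced, overlapped the wild type at 45.3% and 52.2%.

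The gbp2Δ and tho2Δ strains stood apart from the wild type for ARP9 by less. The gbp2Δ libraries, at 0.532 and 0.568, lay below it, as did 18.8% of genes in that strain, with a difference of -0.0484 in the mean (median over all genes -0.0140) and -0.0412 within the run (median 0.000146). The tho2Δ libraries, at 0.648 and 0.624, lay above it, as did 29.2% of genes in that strain, by 0.0377 in the mean and 0.0151 within the run, the latter below the median of 0.0292 over all genes. Neither passed the test (edgeR adjusted p = 0.992 and 0.741). With all reads pooled, tho2Δ, at 60.7% and 54.1% spliced, was the 1 strain apart from the wild type for ARP9. The rtt103Δ (0.575 and 0.624), pub1Δ (0.522 and 0.673) and htz1Δ (0.523 and 0.642) pairs overlapped it for ARP9, as they did for ACT1 and ARP2. Of all genes, 20.8% stood apart from the wild type in rtt103Δ, 14.6% in pub1Δ and 14.6% in htz1Δ, in either direction.

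**Figure D2:**
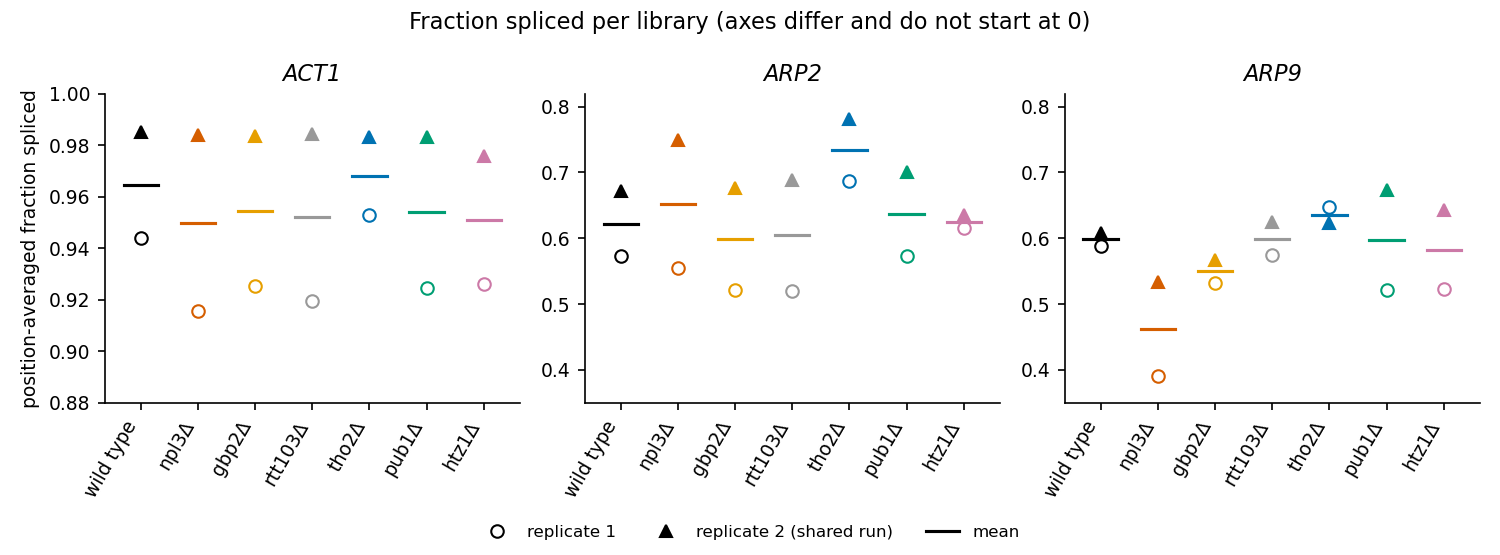
Position-averaged fraction spliced (y axis, ranges differ between genes and do not start at 0) in every SMIT library of the wild type and the 6 deletion strains (x axis); open circles are replicate 1, triangles replicate 2 of the shared run, and lines the mean of both. ACT1 libraries separate by replicate, the tho2Δ pair lies above the wild-type pair for ARP2, and the npl3Δ pair at 0.391 and 0.534 lies below it for ARP9.

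The anchor-away series asks how splicing changes within minutes of Nab2 leaving the nucleus. With 1 library per strain and time there is no test, and a change of more than 0.1 from 0 min was counted. Of the 3 genes, ARP9 passed this size, at 10 min in Nab2-AA. At 30 min its raw position-averaged fraction lay close to the 0 min value again. Its fraction in Nab2-AA was 0.587 at 0 min, 0.467 at 10 min and 0.581 at 30 min, while Control-AA held 0.659, 0.658 and 0.656. After the authors' correction Nab2-AA held 0.511, 0.382 and 0.474, so 30 min stayed below 0 min. Control-AA then held 0.567 at each time. The raw change of ARP9 in Nab2-AA at 10 min was -0.119 (interval -0.143 to -0.0951), beside a median of -0.0493 over all genes. Of the 57 genes, 29.8% fell by more than 0.1 in Nab2-AA at 10 min and 28.1% at 30 min, and ARP9 ranked 13th from the lowest at 10 min. In Control-AA 1.75% of genes fell that far at 10 min and 0 at 30 min.

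The ARP9 fall at 10 min spread along the gene: 15 of 17 bins were lower than at 0 min, by up to 0.297 in the bin that starts at 361 nt, while the first bin was higher by 0.0830. At 30 min, 8 of 17 bins were lower and 9 higher than at 0 min. Pooled without bins, the change was -0.0594 at 10 min and 0.0599 at 30 min, so the size depends on how positions are weighted. The reads also shifted: the median ARP9 position in Nab2-AA was 79 nt past the 3′ splice site at 0 min, 106 nt at 10 min and 102 nt at 30 min, and in Control-AA 86, 78 and 86 nt.

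Nab2-AA and Control-AA already differed for ARP9 before rapamycin. Nab2-AA minus Control-AA was -0.0724 at 0 min, -0.191 at 10 min and -0.0751 at 30 min, where the median over all genes was -0.0120, -0.0401 and -0.0386. The difference at 0 min put ARP9 8th from the lowest of 57 genes, of which 42 were lower in Nab2-AA. At 0 min it was -0.0470 for ARP2 and -0.0153 for ACT1.

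ARP2 and ACT1 moved less. ARP2 in Nab2-AA held 0.711, 0.640 and 0.667 at 0, 10 and 30 min, and in Control-AA 0.758, 0.729 and 0.713, so that 30 min minus 0 min was -0.0438 in the first strain and -0.0454 in the second. For ACT1 the Nab2-AA values were 0.976, 0.968 and 0.973, and those of Control-AA 0.992, 0.990 and 0.986. The ACT1 changes from 0 min lay between -0.00851 and -0.00151.

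**Figure D3:**
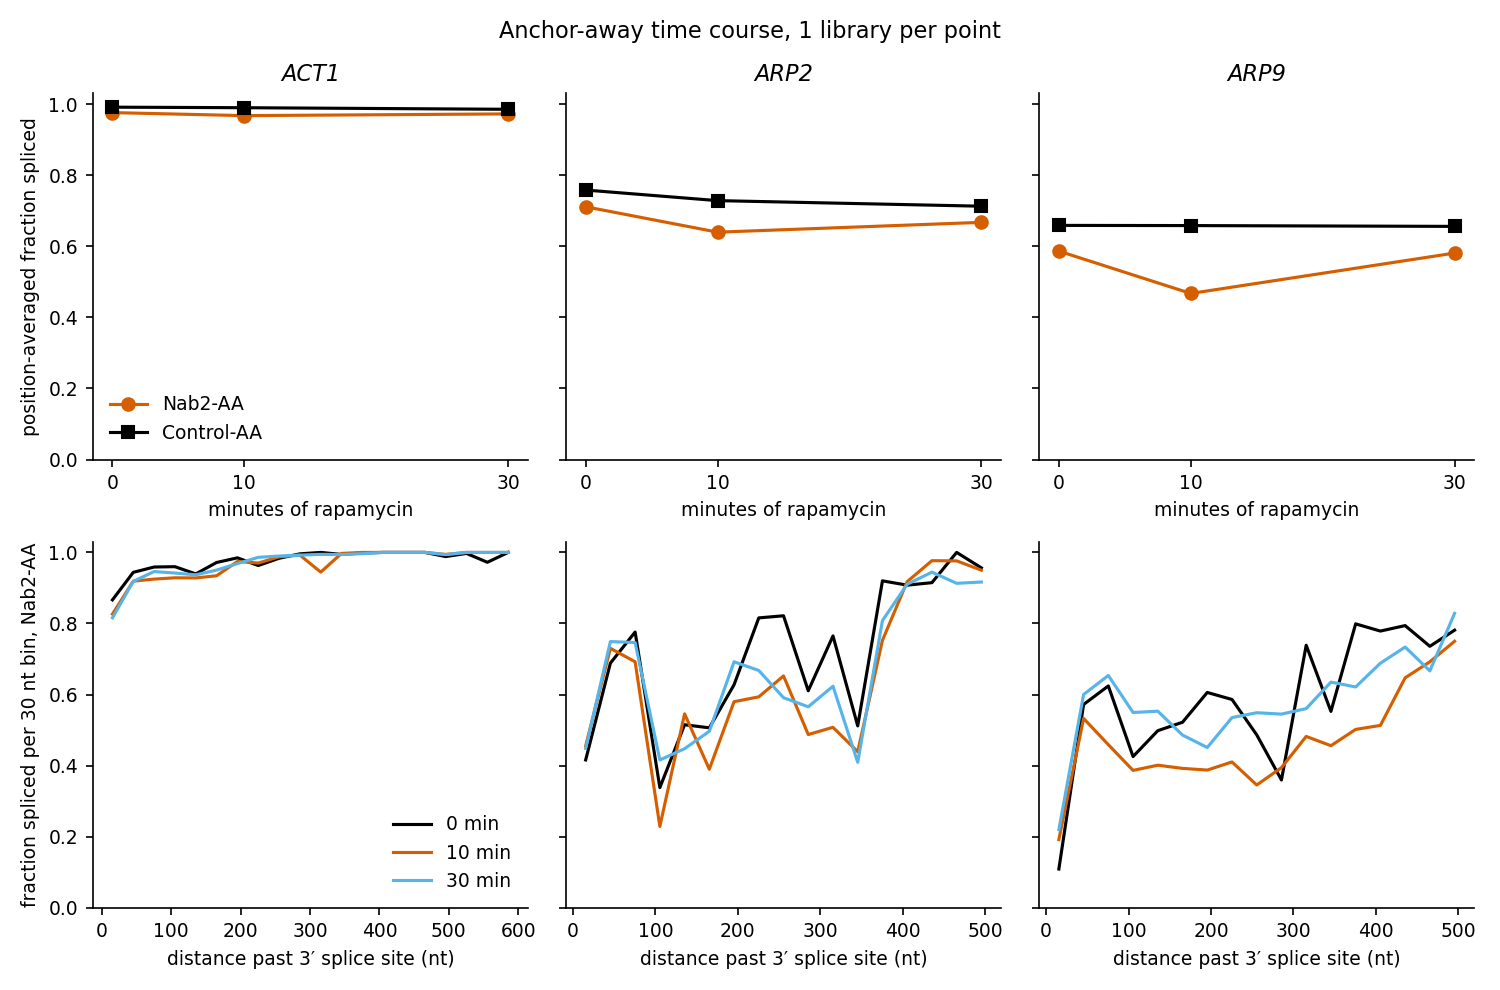
Top row, position-averaged fraction spliced (y axis) against minutes of rapamycin (x axis) in Nab2-AA and Control-AA; bottom row, fraction spliced in 30 nt bins against distance past the 3′ splice site (nt) in Nab2-AA at each time. The ARP9 line of Nab2-AA goes from 0.587 down to 0.467 and back to 0.581, while ACT1 stays above 0.96 throughout.

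Long reads carry whole nascent transcripts and ask, in addition, whether transcription ran past the gene end and whether a transcript began in an upstream gene. There were 10042 to 32107 alignments per library. The depth differed widely between the 3 genes: 337 to 1133 reads spanned the ACT1 intron per library, 15 to 53 that of ARP9 and 2 to 10 that of ARP2. Over all introns 66.3% and 66.7% of spanning reads were spliced in the Nab2-AA libraries and 75.1% and 77.1% in the Control-AA libraries.

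ACT1 transcripts ran past the gene end more often in Nab2-AA than in Control-AA. No long-read library was taken before rapamycin, so a change upon Nab2 withdrawal was not tested. The strains differ in mating type as well as in the tag. Reads ending over 250 nt past the coding end were 135 of 1135 (11.9%) and 50 of 338 (14.8%) in the Nab2-AA libraries, against 22 of 478 (4.60%) and 36 of 624 (5.77%) in the Control-AA libraries. Both Nab2-AA libraries lay above both Control-AA libraries. The log2 odds ratio was 1.39 (SE 0.265, edgeR adjusted p = 3.41e-06), close to the median of 1.52 over the 185 genes tested, of which 34.1% were called higher. The call was lost without Control-AA replicate 1 (log2 odds ratio 1.24, adjusted p = 0.0759) and without Control-AA replicate 2 (1.58, adjusted p = 0.0954), with all 4 such fits between 1.24 and 1.65.

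Whether an ACT1 read was spliced went with where it ended, in both strains. Reads ending 0 to 250 nt past the coding end were 94.5% (736 of 779) and 93.9% (232 of 247) spliced in Nab2-AA, against 321 of 338 reads and 96.1% (445 of 463) in Control-AA. Reads ending over 250 nt past it were 43.7% (59 of 135) and 64.0% (32 of 50) spliced for Nab2-AA, beside 54.5% (12 of 22) and 58.3% (21 of 36) in Control-AA. Those ending 301 to 900 nt past the 3′ splice site, inside the gene, were spliced in 78 of 125 and 9 of 15 reads of the Nab2-AA libraries, and in 39 of 61 and 43 of 66 of the Control-AA libraries. In each of the 4 libraries the share was lower among reads that ran past the end than among those that ended near it, with exact 95% intervals that did not overlap.

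Over all reads the ACT1 intron was spliced in 935 of 1133 (82.5%) and 283 of 337 (84.0%) reads of the Nab2-AA libraries, beside 409 of 477 (85.7%) and 548 of 623 (88.0%) for Control-AA. The Nab2-AA libraries lay below the Control-AA libraries, with a log2 odds ratio of -0.45 (SE 0.226, edgeR adjusted p = 0.220) that did not pass the test. When reads ending over 250 nt past the coding end were left out, the libraries overlapped, at 87.8% and 87.5% against 87.3% and 89.8%, with a log2 odds ratio of -0.13 (edgeR adjusted p = 0.866). These long-read shares lie below the SMIT fractions of ACT1 at 10 min, which come from other libraries. With raw SMIT reads the gap was wider, not narrower, inside the gene, where the stretches compared overlap but are not the same. Of long reads ending 301 to 900 nt past the 3′ splice site, Nab2-AA had 62.4% and 60% spliced, the latter from 15 reads. The Control-AA shares there were 63.9% and 65.2%. By SMIT at 301 to 600 nt, the raw 10 min fraction was 0.994 for Nab2-AA, beside 0.9998 for Control-AA. The authors' correction divided the ACT1 odds by 5.53 in the first library and 8.64 in the second, which lowers these fractions. The gap at these positions was not measured after correction. The cause of this gap was not tested.

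ARP9 was the 1 gene of the 3 whose splicing passed the long-read test, and the call rested on few reads. It was spliced in 13 of 53 reads (24.5%) and 5 of 25 (20%) of the Nab2-AA libraries, and in 5 of 15 (33.3%) and 17 of 24 (70.8%) in Control-AA. Both Nab2-AA libraries lay below both Control-AA libraries, and the Control-AA libraries lay far apart from each other. The log2 odds ratio was -2.08 (SE 0.664, edgeR adjusted p = 0.0315), and 5.97% of the 201 introns were called, all lower in Nab2-AA. Without Control-AA replicate 2 it was -0.74 (adjusted p = 0.813). It was -2.33 (adjusted p = 0.186) without Nab2-AA replicate 1, -1.96 (adjusted p = 0.114) without Nab2-AA replicate 2 and -2.99 (adjusted p = 0.00482) without Control-AA replicate 1. DESeq2 gave -2.02 (adjusted p = 0.584) and limma -2.02 (adjusted p = 0.0360).

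Reads ending beyond ARP9 were 18 of 55 (32.7%) and 5 of 26 (19.2%) for Nab2-AA, beside 4 of 16 (25.0%) and 5 of 26 (19.2%) in Control-AA. The groups overlapped, with a log2 odds ratio of 0.53 (SE 0.721, edgeR adjusted p = 0.566), which turned to -0.20 without Nab2-AA replicate 1.

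Chimeric reads, which overlapped an upstream gene on the same strand and ARP9 by at least 50 nt each, were 5 of 55 (9.09%) and 7 of 26 (26.9%) in Nab2-AA, 0 of 16 in Control-AA replicate 1, which allows up to 18.8%, and 1 of 26 (3.85%) in Control-AA replicate 2. Both Nab2-AA libraries lay above both Control-AA libraries. Its log2 odds ratio of 2.77 (SE 1.64, edgeR adjusted p = 0.331) did not pass the test, in which 5.49% of 91 genes were called, all higher. Only genes with a chimeric read in some library were tested. Of the 11 chimeric Nab2-AA reads that crossed the ARP9 intron, 8 kept it, 1 had spliced it, and 2 had another gap. The 12 chimeric Nab2-AA reads reached 800 to 2590 nt upstream of the ARP9 start codon, and 10 of them started 2483 to 2590 nt upstream, around the start of HOF1, which encodes a protein of the bud neck that acts in cytokinesis.

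The 2 reads with another gap joined HOF1 to ARP9. In both, from Nab2-AA replicate 1, the gap ran from 336628 to 337903 on chromosome XIII (1276 nt). Its left end lies inside HOF1 and its right end is the last base of the ARP9 intron. They started 1435 and 2590 nt upstream of the ARP9 start codon and ended at the same base, 507 nt past the 3′ splice site, in a library amplified by PCR. No such read was listed in the other 3 libraries.

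ARP2 had few long reads, and none of its comparisons passed the test. Spliced reads were 3 of 10 and 1 of 5 for Nab2-AA, beside 2 of 2 and 3 of 6 in Control-AA (log2 odds ratio -2.12, SE 1.57, edgeR adjusted p = 0.426). Reads ending beyond the gene were 4 of 12 and 2 of 6 against 0 of 2 and 1 of 6 (log2 odds ratio 1.64, adjusted p = 0.517). Chimeric reads from PRP9, which encodes a splicing factor, were 2 of 12 and 3 of 6 against 0 of 2 and 0 of 6 (edgeR adjusted p = 0.331). ARP2 thus entered this test through its Nab2-AA reads alone. The 2 chimeric reads that crossed the ARP2 intron kept it. For ACT1 no chimeric read was seen in 338 to 1135 reads per library, which allows shares of up to 0.264% to 0.888%.

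**Figure D4:**
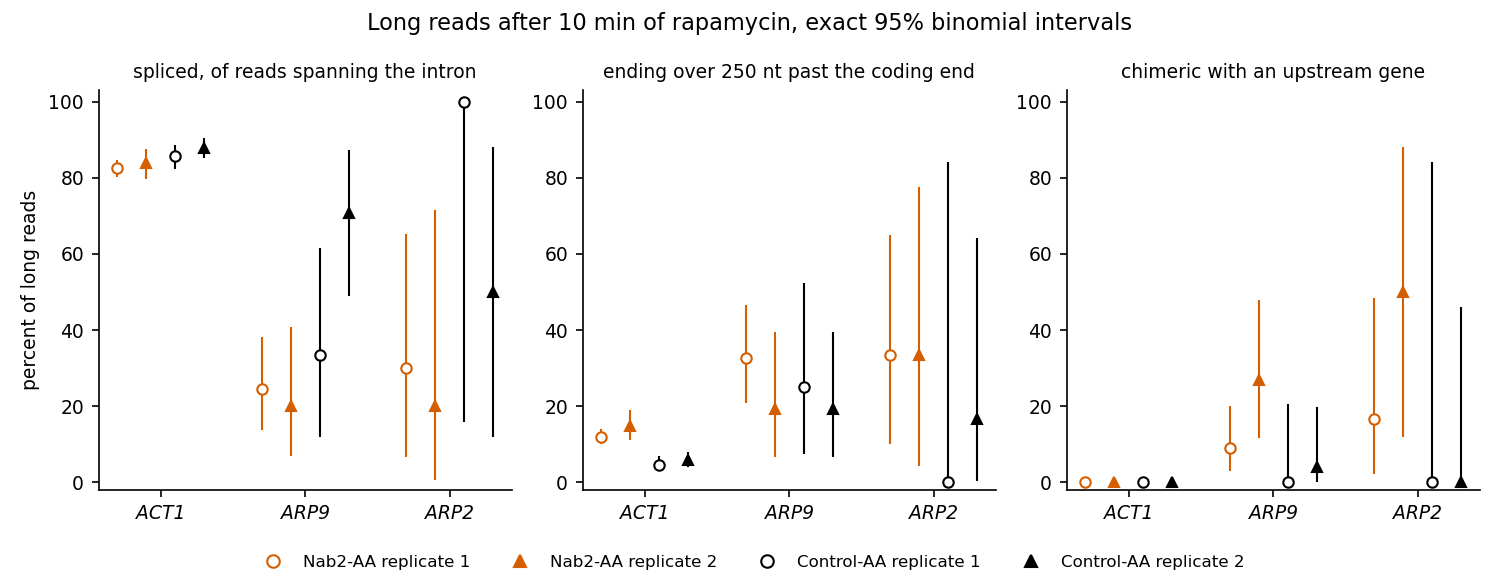
Percent of long reads (y axis) that were spliced, that ended over 250 nt past the coding end and that were chimeric, for the 3 genes (x axis) in each library, with exact binomial intervals. Orange is Nab2-AA and black Control-AA, open circles are replicate 1 and triangles replicate 2; the ACT1 reads beyond the end stand at 11.9% and 14.8% in Nab2-AA against 4.60% and 5.77% in Control-AA, and the ARP9 Control-AA libraries lie apart at 33.3% and 70.8% spliced.

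Genes of related function gave the following counts. In long reads, rose and fell mean called higher and lower in Nab2-AA than in Control-AA. Of 7 genes of the actin cytoskeleton, 2 rose in reads ending beyond the gene, ACT1 and PFY1 (profilin, log2 odds ratio 1.66, edgeR adjusted p = 0.00958), beside 34.1% of all genes and with a list median of 1.66 against 1.52. The PFY1 call was kept in 1 of 4 fits with 1 library left out (log2 odds ratios of 1.21 to 2.69) and lost with DESeq2. None of the 7 was called in long-read splicing (median -0.88 against -0.57), and none of the 5 tested was called in chimeric reads. Where reads were few, as for ARP2, a change could have been missed. In the anchor-away SMIT series, SAC6, which encodes fimbrin, was the only 1 of 3 genes of this list to pass a change of 0.1. Its change in Nab2-AA was 0.234 at 10 min and 0.281 at 30 min, where 1.75% and 5.26% of genes rose that far. Of 5 genes for microtubules and folding of cytoskeletal proteins, 4 were tested in long-read splicing and none was called.

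Of 5 genes of chromatin and transcription complexes, 4 were tested in long-read splicing. ARP9 and TAF14 fell (TAF14, a subunit shared by several such complexes, log2 odds ratio -3.56, edgeR adjusted p = 0.00906), beside 5.97% of all introns and with a list median of -1.78 against -0.57. The TAF14 call was kept in 1 of 4 fits with 1 library left out, between -4.21 and -2.60, and lost with DESeq2 and with the replicate block. In chimeric reads 3 genes of the list were tested and 2 rose, TAF14 and VPS75, a histone chaperone, both at edgeR adjusted p = 0.0263. This stands beside 5.49% of all genes tested, which are only those with a chimeric read. VPS75 entered the test through its Nab2-AA reads alone. Chimeric reads of TAF14 were 25 of 48 and 13 of 18 in Nab2-AA, with 0 of 7 and 1 of 15 for Control-AA. Those of VPS75 were 10 of 25 and 9 of 19 in Nab2-AA, with 0 of 11 and 0 of 13 for Control-AA. Both calls were lost in all 4 fits with 1 library left out (adjusted p of 0.125 to 0.308), with DESeq2 and with the replicate block.

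In reads ending beyond the gene 4 genes of the list were tested. RPO26, an RNA polymerase subunit, rose (log2 odds ratio 4.07, edgeR adjusted p = 5.6e-07), and the call was lost without either Control-AA library (edgeR adjusted p = 0.0609 and 0.0568). VPS75 fell (-2.53, edgeR adjusted p = 0.0435), the 1 gene of 185 called lower (0.541%), and this call was lost with DESeq2 and in all 4 fits with 1 library left out, which ran from -7.53 to -1.41. In SMIT at 10 min RPO26 fell by 0.103 in Nab2-AA beside the 0.119 of ARP9.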

How the data were processed

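The 3 genes were taken by identifier, but they and the gene lists were proposed with earlier results of these data known, so list counts support no pattern. Per the file headers, the SMIT files deposited by the authors give counts of reads for each 3′ end position of a gene, a raw fraction spliced and a corrected fraction whose correction is not stated. The authors' difference score has no stated scale and was not used for results, and the long-read table of the authors lists spliced fractions by gene. The deposited long-read alignments are genome positions; how they were selected is not given in the sources used here. HISAT2 2.1.0, cutadapt 1.9.1, minimap2 2.17, SAMtools 1.9, bedtools 2.29.2 and the build sacCer3 are named in the submitters' processing notes.

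SMIT reads were summed downstream of the 3′ splice site for tests and averaged over 30 nt bins for fractions. Genes needed 20 reads in every library and positions reaching 200 nt: 48 of 53 genes in the deletion series and 57 of 59 in the anchor-away series. In long reads 202 introns in 194 genes were found from gaps; a read was spliced when its gap lay within 10 nt of both ends and unspliced when it covered at least 90% of it. Features needed 10 reads over all libraries. Gene spans came from the RefSeq gene table, with strand read from the locus tag; no sequence was used here.

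Splicing state, end class and chimeric class were tested with edgeR 4.0.16 (quasi-likelihood) as the interaction with strain, with a term for each library; p-values were adjusted by Benjamini-Hochberg over all features and read at 0.05. DESeq2 1.42.0 and limma 3.58.1 in R 4.3.3 were alternatives, with other filters, bins, blocks and each library left out. The fits were tested on simulated data. Shares have exact (Clopper-Pearson) 95% intervals; a share of 0 allows up to 3 counts. Named genes were the 3 members, the 3 genes most like each by curve and by correlation, neighbours that their reads entered, and list genes that passed. Replicate 2 of all 7 strains shares a run, as does replicate 1 of the 6 deletion strains but not of the wild type, per the labels; deviations correlated at 0.282 to 0.852 between deletion strains and at 0.0171 to 0.560 between these and the wild type, so the numbers pair the deletion strains with each other and the wild type only in part. Scripts used Python 3.11.15, pandas 2.3.3, numpy 2.4.6, matplotlib 3.10.9 and SciPy 1.17.1.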

Additional observations from a re-analysis of the deposited data

How the results depend on the processing

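No alternative called ACT1, ARP2 or ARP9 in the deletion series. The number of genes called there rose from 0 to 1 in gbp2Δ and 2 in tho2Δ with the run as a block, 3 in tho2Δ with the replicate block, 2 in pub1Δ and 1 in tho2Δ with only the wild type and the strain fitted, and 1 in rtt103Δ and 1 in tho2Δ with DESeq2. Among the 7 strains together it was 1 with DESeq2 and 2 with the run block. It stayed at 0 when each library was left out. The log2 odds ratio of ARP9 in gbp2Δ ran from -0.26 to 0.13 in those fits. The replicate block changed no call of the 3 genes in SMIT. In long reads the numbers do not pair the libraries: over 85 introns the replicate deviations of the strains correlated at -0.0529. In long reads the introns called fell from 12 to 1 with DESeq2, 1 with the replicate block, 0 among reads neither chimeric nor ending over 250 nt past the end, and 2 to 10 with 1 library left out. Genes called for reads ending beyond the gene fell from 64 to 28 at 400 nt, 14 with DESeq2 and 0 to 54 with 1 library left out; genes called for chimeric reads fell from 5 to 2 at an overlap of 100 nt, 2 with DESeq2 and 0 to 2. The ARP9 splicing call was lost with DESeq2 (-2.02), the replicate block (-1.90, adjusted p = 0.363), reads neither chimeric nor ending over 250 nt past the end (-1.94, adjusted p = 0.780) and without read names on both strands (-1.77, adjusted p = 0.0821), and lay between -2.99 and -0.74 with 1 library left out. The ACT1 ratio for reads ending beyond the gene lay between 1.24 and 1.65 and that of ARP9 between -0.20 and 0.82. The strains that did not overlap the wild type were 0 for ARP2 with bins of 15 nt and 0 with at least 50 reads per bin, and 1 for ARP9 with all reads pooled; the genes past 0.1 in Control-AA at 30 min rose from 0 to 1 with all reads pooled. The causes were not tested. ARP2 had no value with at least 5 long reads in every library. Depth limits the long-read values of ARP9 and ARP2.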
